A study of Mus musculus with 23 samples.

Results

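Transcripts of 10 genes that mark neutrophils were followed in RNA from microglia of the mouse striatum, the brain region that receives the dopamine signal on which methamphetamine acts. The members were the rows of the count table named Mpo, Elane, Ltf, Camp, Ngp, S100a8, S100a9, Lcn2, Retnlg and Mmp8, and all 10 were found among 35976 genes. The Abstinence group (n = 7 libraries) came from mice that took methamphetamine by vein at 0.05 mg/kg per infusion in 2-hr sessions on 15 days and were then kept in their home cages for 21 drug-free days. The Maintenance group (n = 8) came from mice on the same methamphetamine schedule, collected right after the last session. The Saline group (n = 8) took saline over the same sessions and was collected at the same point, so no saline group passed through the 21 days. All mice were male C57BL/6J, 9 weeks old in the labels, with no transgene named, and every group carried the catheter and the lever training. The labels do not say that each library came from a separate mouse, so p-values measure the spread between libraries.

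Neutrophils are short-lived phagocytes of the blood that are made in the bone marrow. Their granules are filled in order as the cell matures. Primary (azurophil) granule proteins such as myeloperoxidase and neutrophil elastase are transcribed in promyelocytes, secondary granule proteins such as lactoferrin and the cathelicidins in myelocytes and metamyelocytes, and calprotectin, resistin-like gamma and Mmp8 transcripts persist into late and circulating cells. Microglia are brain macrophages of a different origin, seeded from the yolk sac before birth.

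Total counts were 54970954 to 94827095 per library. The microglial gene P2ry12, a purine receptor, measured 9660 ± 871 CPM (counts scaled to the library total after TMM correction) in Abstinence, 9820 ± 1210 in Maintenance and 9500 ± 958 in Saline libraries (SD). Ly6g, the surface protein by which mouse neutrophils are sorted, had counts in 0 of 7 Abstinence, 1 of 8 Maintenance and 4 of 8 Saline libraries. The 10 members summed to 10.2 to 155 CPM in Abstinence, 4.82 to 173 CPM in Maintenance and 45.5 to 872 CPM in Saline libraries, so they were a small part of each isolate. A bulk isolate cannot tell fewer neutrophils from less of these RNAs per cell. Maintenance 8 held choroid plexus and ependymal markers at a summed 75600 CPM, against 104 to 329 in the other 7 of its group, and Maintenance 6 and 7 had the fewest detected genes (12459 and 12740).

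The members fell into 3 sets by where their counts lay. Mpo and Elane had counts in Saline libraries only. Ltf, Camp and Ngp had counts in most Saline libraries and in few of the others. S100a8, S100a9, Lcn2, Retnlg and Mmp8 were present in nearly all libraries of every group. With all 23 libraries in an edgeR quasi-likelihood fit, 0 of the 8 members tested passed an adjusted p under 0.05 in Maintenance against Saline, where 0.707% of all genes passed. In Abstinence against Saline 0 of 8 passed, where 0.0186% of all genes did, and in Abstinence against Maintenance 0 of 7, where 0.949% did. At an unadjusted p under 0.05 the counts were 2, 5 and 1 in that order, each of them a lower level in the group named first, where 5.73%, 2.23% and 5.86% of all genes were lower at that p. Mpo, Camp and Ngp passed the filter on low counts only with their Saline libraries, so they had to differ from Saline and their share of these counts shows nothing further. Among the other 5 members tested, S100a8 and Mmp8 were below that p in Abstinence against Saline and none was in the other comparisons. DESeq2 called 0 members in Maintenance against Saline (2.16% of all genes), where it gave no adjusted p for Mpo, Camp and Lcn2. It called 2 in Abstinence against Saline, both of them genes that had to differ (0.223% of all genes), and 0 in Abstinence against Maintenance (2.8%), where it gave no adjusted p for Camp and Lcn2.

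**Figure D1:**
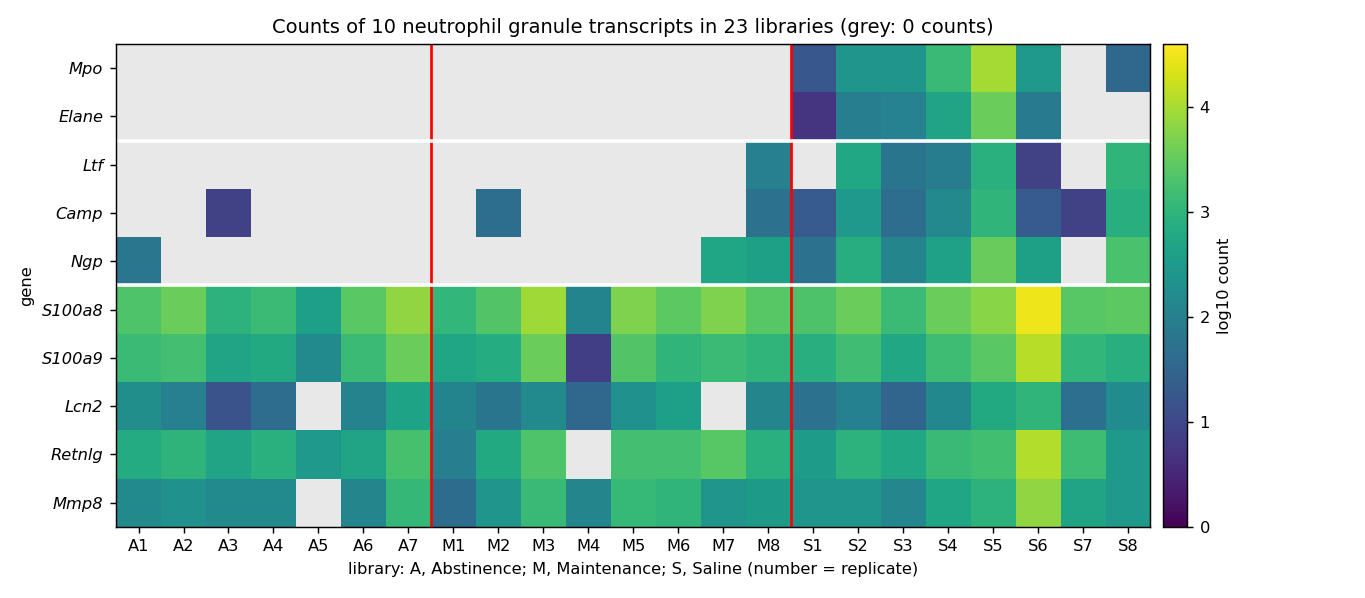
Counts of the 10 members (rows, in the order primary granule, secondary granule and further transcripts) in 23 libraries (columns), coloured by log10 count, with 0 counts in grey. Mpo and Elane are grey in all 15 Abstinence and Maintenance libraries, while S100a8 and S100a9 have counts in all 23.

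The promoters of 5 members are shown because these genes had most or all of their counts in Saline libraries, with the 250 bases before the start of transcription read 5′ to 3′ on the strand of the gene. Capitals mark GAGGAA (a core of ETS factors such as PU.1) and TTGCNNAA (a C/EBP form), searched on both strands, together with TGTGGT (RUNX), which none of these 5 holds. The sequences are from RefSeq (GRCm38.p6), at chr11:87793534-87793783 for Mpo, chr10:79886062-79886311 for Elane, chr9:111019042-111019291 for Ltf and chr9:110419558-110419807 for Ngp, all on the plus strand, and at chr9:109849457-109849706 on the minus strand for Camp.
Mpo: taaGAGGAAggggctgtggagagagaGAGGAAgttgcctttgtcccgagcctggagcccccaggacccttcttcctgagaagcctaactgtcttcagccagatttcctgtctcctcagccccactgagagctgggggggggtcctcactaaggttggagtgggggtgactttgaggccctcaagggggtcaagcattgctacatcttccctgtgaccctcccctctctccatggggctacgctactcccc
Elane: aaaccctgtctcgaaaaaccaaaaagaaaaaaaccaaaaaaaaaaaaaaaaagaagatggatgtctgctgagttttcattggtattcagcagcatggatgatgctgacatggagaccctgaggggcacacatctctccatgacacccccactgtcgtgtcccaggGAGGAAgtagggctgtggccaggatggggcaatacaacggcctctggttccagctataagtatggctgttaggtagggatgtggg
Ltf: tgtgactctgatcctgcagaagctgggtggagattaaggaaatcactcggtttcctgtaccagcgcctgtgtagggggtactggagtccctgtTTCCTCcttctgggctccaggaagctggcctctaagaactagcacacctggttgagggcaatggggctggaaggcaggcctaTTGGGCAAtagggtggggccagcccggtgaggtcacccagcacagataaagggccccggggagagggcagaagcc
Camp: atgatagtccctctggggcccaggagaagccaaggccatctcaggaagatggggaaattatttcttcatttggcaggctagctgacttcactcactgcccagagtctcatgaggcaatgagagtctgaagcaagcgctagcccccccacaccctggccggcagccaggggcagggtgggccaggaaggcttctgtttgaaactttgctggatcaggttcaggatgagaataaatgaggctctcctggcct
Ngp: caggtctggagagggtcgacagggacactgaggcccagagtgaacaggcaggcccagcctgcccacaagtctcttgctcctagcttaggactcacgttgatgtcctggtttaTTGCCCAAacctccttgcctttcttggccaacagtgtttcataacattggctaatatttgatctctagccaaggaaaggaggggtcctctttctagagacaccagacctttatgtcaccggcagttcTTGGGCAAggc

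GAGGAA occurred 2 times before Mpo and once before Elane, and TTGCNNAA at neither. TTGCNNAA occurred once before Ltf and 2 times before Ngp, and GAGGAA once before Ltf. Among 32851 RefSeq promoter windows of this length, 23.3% held GAGGAA, 9.56% held TTGCNNAA and 14.0% held TGTGGT. No match overlapped a match of another motif. Camp held none of the 3, and among all 10 members S100a9 held the only TGTGGT match. These matches describe letters and are not binding sites.

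Mpo (chromosome 11, 87793784 to 87804412) encodes myeloperoxidase, the enzyme that makes hypochlorous acid in the neutrophil's phagosome. It had 0 counts in all 7 Abstinence and all 8 Maintenance libraries, against 18, 247, 262, 1336, 9542, 313, 0 and 35 counts in Saline 1 to 8. Saline 5 alone held 81.2% of all Mpo counts, Saline 4 a further 11.4%, and Saline 7 had none, so the groups overlapped at 0. Pooled over the Saline libraries the level was 20.9 CPM, and a count of 0 over a whole group allows up to 0.00491 CPM in Maintenance and 0.00521 CPM in Abstinence (3 counts over the group). Mpo was therefore at least 4250-fold lower in Maintenance and at least 4000-fold lower in Abstinence than in the pooled Saline libraries, and at least 911-fold and 857-fold lower with Saline 5 left out. These limits cover counting error only and not the spread between Saline libraries, whose median was 3.98 CPM. They hold only if the deposited whole numbers are read counts. Whether they are counted reads or estimates rounded from coverage is not given in the sources used here, and an estimate of 0 can cover some reads. The edgeR adjusted p was 0.122 in Maintenance and 0.596 in Abstinence, both against Saline. DESeq2 called Mpo in Abstinence (adjusted p = 7.7e-05) after it had replaced the Saline 5 count of 9542 with 19. With the replicate number as a block edgeR gave 0.00253 in Maintenance and 0.0081 in Abstinence, although the numbers do not pair the libraries. Mpo passed the filter on low counts only with its Saline libraries, so these p-values show nothing beyond its counts.

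Elane (chromosome 10, 79886312 to 79888216), the serine protease neutrophil elastase, followed Mpo library by library. It had 0 counts in the 15 Abstinence and Maintenance libraries, against 5, 92, 108, 493, 3737, 76, 0 and 0 counts in Saline 1 to 8. The libraries with the most Elane, Saline 5 and then Saline 4, were those with the most Mpo. Elane counts were 0.243 to 0.412 of the Mpo counts in the 5 Saline libraries with at least 50 Mpo counts. Elane was at least 1630-fold lower in Maintenance and at least 1540-fold lower in Abstinence than in the pooled Saline libraries (8.01 CPM), and at least 319-fold and 300-fold lower without Saline 5. With too few libraries above the filter it was not in the main test. In a fit with no filter on low counts its adjusted p was 0.151 in Maintenance and 0.265 in Abstinence, over 22863 genes.

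Detection in this pattern was rare over the whole table. Of 22863 genes with any count, Mpo was the only gene with counts in at least 7 of 8 Saline libraries and in 0 of the 15 others (0.00437%). With at least 6 of 8 Saline libraries required, 5 genes remained (0.0219%), namely Mpo, Elane, 9330102E08Rik, Gm11770 and Crtam. The last 3 held 279, 222 and 162 counts in all, and in all 5 genes Saline 5 was the highest library. In the other direction, 1 gene had counts in at least 6 Maintenance and in 0 Saline libraries (0.00437%). The pattern was written down from the values of Mpo, so these shares describe the table and test nothing.

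Other early granule genes were checked for the same libraries, a choice made after their values were seen. Ctsg, cathepsin G of the primary granule, had 0 counts in the 15 Abstinence and Maintenance libraries, against 0, 11, 14, 56, 352, 13, 0 and 0 in Saline 1 to 8. Prtn3, proteinase 3, had 72 counts over 3 Abstinence libraries and 16 in a single Maintenance library, against 855 over 5 Saline libraries, of which 571 were in Saline 5. Ms4a3, a marker of granulocyte-monocyte progenitors, had counts only in Saline 4 (8) and Saline 5 (54). Cebpe, the factor required for secondary granules in mice, had counts in 1 Abstinence library (84), 1 Maintenance library (5) and 6 Saline libraries, with the most in Saline 5 (149). Saline 5 was thus the highest Saline library for each of these 4 genes. Chil3, a chitinase-like gene of neutrophil precursors and monocytes, did not follow them. It had 1723, 1142, 46, 206, 71, 289 and 1211 counts in Abstinence 1 to 7, 37, 77, 708, 0, 0, 0, 483 and 96 in Maintenance 1 to 8, and 1366, 719, 434, 665, 1253, 2523, 1285 and 403 in Saline 1 to 8.

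Among the secondary granule genes, Ltf (chromosome 9, 111019292 to 111042766) encodes the iron-binding protein lactoferrin. It had 0 counts in the 7 Abstinence libraries, 99 counts in Maintenance 8 and 0 in the other 7 Maintenance libraries, against 0, 576, 61, 86, 827, 8, 0 and 1031 in Saline 1 to 8. Saline 8 and Saline 5 together held 69.1% of all Ltf counts. Ltf was at least 882-fold lower in Abstinence than in the pooled Saline libraries (4.59 CPM), and at least 616-fold lower without Saline 8. Without a filter, its adjusted p was 0.265 in Abstinence and 0.153 in Maintenance, both against Saline.

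Camp (chromosome 9, 109847377 to 109849456) encodes the cathelicidin whose cleaved end is the antimicrobial peptide CRAMP. It had 8 counts in Abstinence 3 and 0 in the other 6 Abstinence libraries, 45 in Maintenance 2, 52 in Maintenance 8 and 0 in the other 6 Maintenance libraries. In Saline 1 to 8 it had 21, 303, 45, 144, 1038, 22, 8 and 755 counts. Of Mpo, Elane, Ltf, Camp and Ngp it was the only gene with counts in all 8. The log2 fold change was -7.99 ± 1.94 (SE) in Abstinence against Saline (unadjusted p = 0.000336, adjusted p = 0.218) and -4.60 ± 1.54 in Maintenance against Saline (adjusted p = 0.168). All 7 Abstinence and all 8 Maintenance libraries lay below the Saline median, but the ranges overlapped through Saline 7. DESeq2 called Camp in Abstinence against Saline (adjusted p = 0.0236). Camp passed the filter on low counts only with its Saline libraries, so this call and the p-values above show nothing beyond its counts.

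Ngp (chromosome 9, 110419808 to 110423012), a neutrophilic granule protein with a cystatin-like fold as in Camp, had 65 counts in Abstinence 1 and 0 in the other 6 Abstinence libraries. In Maintenance it had 534 counts in replicate 7, 413 in replicate 8 and 0 in the other 6. In Saline 1 to 8 it had 51, 732, 126, 425, 3464, 417, 0 and 1935 counts. The log2 fold change was -6.69 ± 2.20 in Abstinence (adjusted p = 0.678) and -3.24 ± 1.74 in Maintenance (adjusted p = 0.5), both against Saline. Ngp, Camp and Ltf lie on 1 stretch of chromosome 9, with 570351 bases between Camp and Ngp and 596279 between Ngp and Ltf. Camp counts were 0.3 to 0.414 of the Ngp counts in 6 Saline libraries but 0.0528 in Saline 6. Maintenance 8, the only Maintenance or Abstinence library with counts of all 3, was the library with the choroid plexus and ependymal markers given above, whose part in these counts was not tested.

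The members did not all peak in the same library. Saline 5 led for Mpo, Elane, Camp and Ngp, Saline 8 for Ltf, and Saline 6 for the other 5. Of these 5, Lcn2 was less set apart, at 14.1 CPM in Saline 6 and 9.04 CPM in Saline 5. There were 0.103 Lcn2 counts for each S100a8 count in Saline 5, against 0.0338 in Saline 6. There were 1.59 Mpo counts for each S100a8 count in Saline 5, against 0.0104 in Saline 6, 0.0127 in Saline 8 and 0 in Saline 7. The highest Saline library was at least 3 times the next for 6 of the 10 members, 5 of them among the genes tested, where 3.23% of all genes tested showed such a library. Among members whose next library held counts, this was so in Abstinence for Mmp8 alone (2.93% of all genes tested) and in Maintenance for 0 (8.72%). Camp and Ngp in Abstinence and Ltf in Maintenance had counts in a single library and were left out of these numbers. The shares over all genes do include genes whose next library was at 0, so members and shares follow unlike rules in these groups. The threshold of 3 was set with these values known. In Saline 7 the members with counts were Camp, with 8 counts, and S100a8, S100a9, Lcn2, Retnlg and Mmp8. These last 5 were within the range of the other Saline libraries.

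S100a8 and S100a9 (chromosome 3, 90669071 to 90670034 and 90692630 to 90695721) encode the chains of calprotectin, a calcium- and zinc-binding pair that fills the neutrophil cytosol and is also made by monocytes. Per kilobase of exon S100a8 had the highest median of the members in every group, at 42, 56.4 and 72.8 CPM per kb in Abstinence, Maintenance and Saline. S100a9 came next in Abstinence (28.6 CPM per kb) and Saline (39.4), and in Maintenance it was at 25.7 beside Retnlg at 26. S100a8 measured 29.7, 38.9, 13.3, 18.3, 4.72, 29.1 and 76.9 CPM in Abstinence 1 to 7. In Maintenance 1 to 8 it was 15.3, 40.5, 95, 1.99, 60.1, 37.8, 60.5 and 29.9 CPM, and in Saline 1 to 8 it was 26.0, 65.7, 19.5, 68.5, 87.5, 416, 30.6 and 35.4 CPM. The groups overlapped widely, with Saline 6 above all other libraries and Maintenance 4 and Abstinence 5 below.

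The mean of S100a8 was 30.1 ± 23.6 CPM in Abstinence, 42.7 ± 29.2 in Maintenance and 93.6 ± 132 in Saline, and the Saline mean was 47.6 ± 26.0 without Saline 6. The log2 fold change was -1.64 ± 0.74 in Abstinence (adjusted p = 0.999) and -1.13 ± 0.69 in Maintenance (adjusted p = 0.583), both against Saline. Without Saline 6 these values were -0.66 ± 0.60 and -0.15 ± 0.58. S100a9 averaged 15.5 ± 12.5 CPM in Abstinence, 16.0 ± 12.1 in Maintenance and 38.8 ± 56.2 in Saline, or 19.3 ± 11.8 in Saline without replicate 6. Its log2 fold change in Maintenance against Saline was -1.28 ± 0.77 (adjusted p = 0.57), and -0.27 ± 0.66 without Saline 6. In Abstinence against Saline it was -1.33 ± 0.80 (adjusted p = 0.999), and -0.32 ± 0.68 without that library.

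S100a9 kept close to S100a8 from library to library. The S100a9 count was 0.383 to 0.618 of the S100a8 count in Abstinence (median 0.508), 0.0588 to 0.457 in Maintenance (median 0.381) and 0.283 to 0.433 in Saline (median 0.414). The lowest ratio came from Maintenance 4, where S100a8 had 119 counts and S100a9 had 7. The difference in this ratio between groups was not tested.

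**Figure D2:**
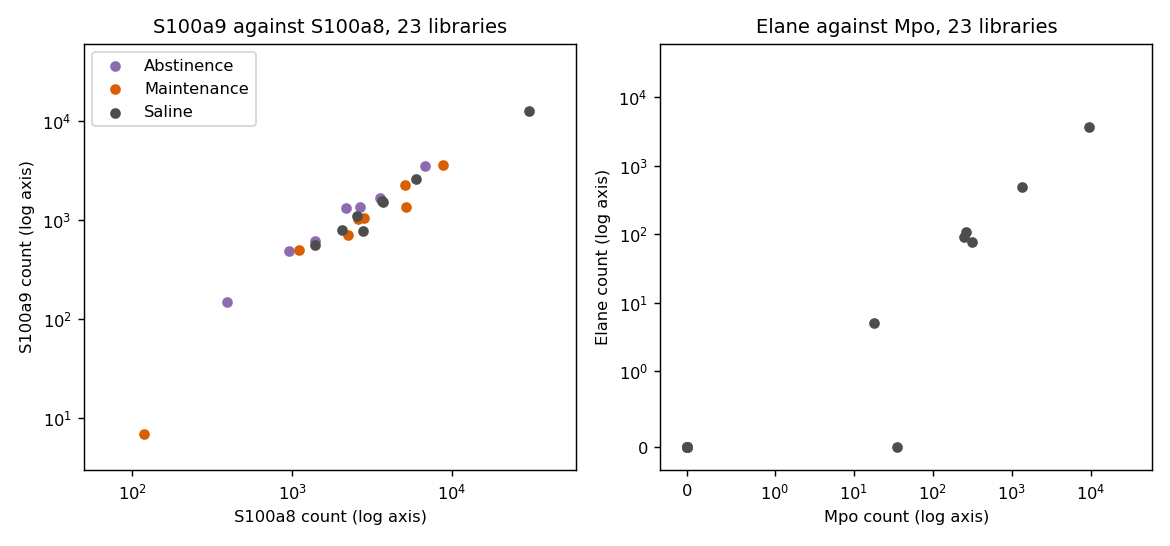
Counts of S100a9 against S100a8 (left) and of Elane against Mpo (right), each point a library, on log axes with 0 drawn at the origin on the right. S100a8 and S100a9 lie near 1 line over all 3 groups, with Saline 6 at the top (30239 and 12743 counts). Both Elane and Mpo are above 0 in 6 Saline libraries, Saline 8 has Mpo without Elane, and the 15 Abstinence and Maintenance libraries lie at the origin with Saline 7.

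Retnlg (chromosome 16, 48872608 to 48874498), resistin-like gamma, a secreted protein of mouse neutrophils, measured 9.27, 10.9, 6.73, 10.9, 3.68, 5.23 and 20.4 CPM in Abstinence 1 to 7. It was 1.26, 11.4, 23.2, 0, 19.5, 23, 29.6 and 9.78 CPM in Maintenance 1 to 8, against 4.36, 17, 7.8, 23.3, 23.6, 162, 18.1 and 4.01 CPM in Saline 1 to 8. Maintenance 4 was the only library without a count, and Saline 6 was 6.84 times the next Saline library. The log2 fold change in Maintenance against Saline was -1.14 ± 0.84 (adjusted p = 0.677) and turned to 0.08 ± 0.72 without Saline 6. In Abstinence against Saline it was -1.76 ± 0.89 (adjusted p = 0.999), and -0.55 ± 0.75 without Saline 6.

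Mmp8 (chromosome 9, 7558429 to 7568486), the neutrophil collagenase, measured 2.14, 2.31, 2.24, 2.05, 0, 1.43 and 12.9 CPM in Abstinence 1 to 7. It was 0.598, 4.62, 13.6, 2.15, 14.5, 13.8, 3.01 and 3.64 CPM in Maintenance 1 to 8, against 3.27, 4.68, 1.9, 9.59, 13.9, 94.2, 5.73 and 3.72 CPM in Saline 1 to 8. Abstinence 7 stood above the other 6 of its group, and Saline 6 held 42.2% of the counts of all 23 libraries. The log2 fold change was -2.38 ± 0.99 in Abstinence against Saline (unadjusted p = 0.0256, adjusted p = 0.999), and -0.89 ± 0.79 without Saline 6. In Maintenance against Saline it was -1.30 ± 0.91 (adjusted p = 0.656), and 0.19 ± 0.76 without Saline 6.

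Lcn2 (chromosome 2, 32384637 to 32387739) encodes lipocalin 2, which binds bacterial siderophores and is also made by inflamed astrocytes and endothelium. It measured 2.58, 1.11, 0.209, 0.579, 0, 1.24 and 5.28 CPM in Abstinence 1 to 7. It was 1.65, 1.11, 1.68, 0.57, 2.47, 5.32, 0 and 1.44 CPM in Maintenance 1 to 8, against 0.674, 1.92, 0.447, 2.59, 9.04, 14.1, 0.561 and 2.2 CPM in Saline 1 to 8. Saline 6 and Saline 5 were the highest libraries, and Abstinence 5 and Maintenance 7 had no count. The log2 fold change was -1.32 ± 1.00 in Abstinence (adjusted p = 0.999) and -1.14 ± 0.95 in Maintenance (adjusted p = 0.731), both against Saline, and -0.67 ± 1.01 and -0.48 ± 0.97 without Saline 6.

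**Figure D3:**
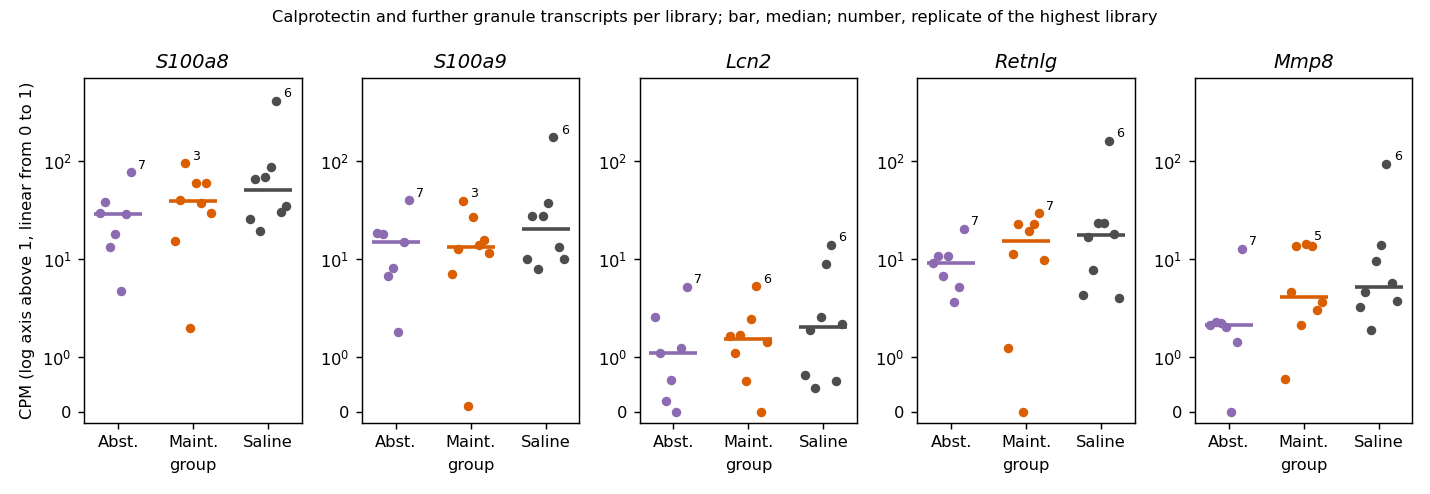
CPM of S100a8, S100a9, Lcn2, Retnlg and Mmp8 per library (points) by group, with the median as a bar and the replicate number beside the highest library; the axis is logarithmic above 1 and linear from 0 to 1. The highest library of the Saline group is replicate 6 in all 5 panels, and the remaining Saline points lie within the range of the other groups, except that Saline 5 is above both for Lcn2 (9.04 CPM).

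Both comparisons with Saline used the same Saline libraries. Between Abstinence and Maintenance the 7 members tested with counts had log2 fold changes of -3.45 ± 1.91 for Ngp to -0.05 ± 0.78 for S100a9, with adjusted p of 0.432 to 0.999. Mpo and Elane had no count in either of these groups, where a count of 0 in a single library allows up to 0.0327 to 0.0418 CPM in Abstinence and 0.0325 to 0.0539 CPM in Maintenance.

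**Figure D4:**
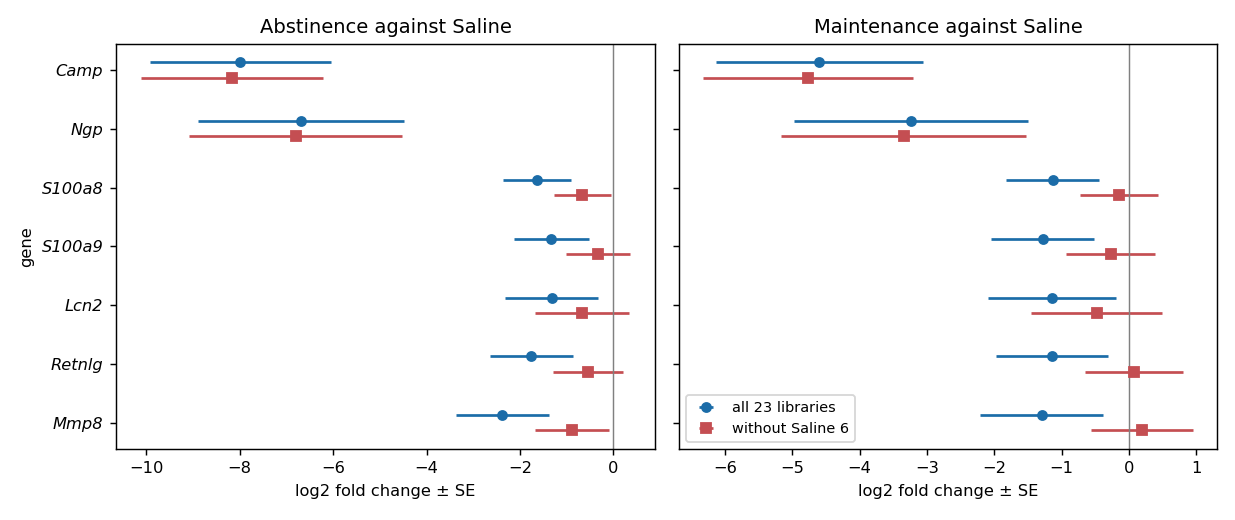
Log2 fold changes (points) ± SE (bars) of 7 members in Abstinence against Saline (left) and Maintenance against Saline (right), with all 23 libraries and without Saline 6. The values of S100a8, S100a9, Lcn2, Retnlg and Mmp8 move towards 0 without Saline 6, and Retnlg and Mmp8 pass it in Maintenance. Camp and Ngp stay near -8 to -3 in both fits, but Saline 6 held few of their counts (22 and 417), so leaving it out could move them little. Without Saline 5, their highest library (not drawn), Camp was -7.33 in Abstinence and -3.94 in Maintenance, and Ngp -5.93 and -2.48. Both genes passed the filter only with their Saline libraries.

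Further neutrophil genes gave few calls. Of 22 other granule genes 14 were tested, and 0 passed in any comparison. Against Saline their median log2 fold change was -0.87 in Abstinence (14 of 14 negative) and -1.02 in Maintenance (10 of 14 negative). Over all genes the median was 0.01 in both. The 14 genes were read from the same Saline libraries, so their signs are not separate observations. The most abundant were Lyz2 and Cd63, which microglia also express, and then Pglyrp1 and Hp. Within the Saline group Lyz2, Pglyrp1 and Hp were highest in Saline 6, and Cd63 in Saline 1. Hp, the hemoglobin scavenger haptoglobin that neutrophils store, averaged 7.77 ± 5.72 CPM in Abstinence, 10.0 ± 7.95 in Maintenance and 19.4 ± 27.9 in Saline, where Saline 6 held 87.1 CPM. Of 16 genes of neutrophil receptors and surface proteins 14 were tested, and Csf3r, the G-CSF receptor, was the 1 that passed in Maintenance against Saline (0.707% of all genes) and in Abstinence against Maintenance (0.949%), and 0 passed in Abstinence against Saline. It fell to 210 ± 18.6 CPM in Maintenance, against 275 ± 28.3 in Saline (log2 fold change -0.39 ± 0.08, adjusted p = 0.00997). It was 282 ± 32.2 CPM in Abstinence, higher than in Maintenance (log2 fold change 0.42 ± 0.08, adjusted p = 0.00564). Csf3r had counts in every library and did not follow the members. It lay between 224 and 309 CPM in Saline, with the highest value in Saline 3, which led for no member. The cells that held Csf3r were not tested. Cxcr2, the receptor that draws neutrophils to chemokines, had its highest value in Saline 6, as Hp did (51.0 CPM, against a Saline median of 4.68).

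Genes whose CPM ranked most like the summed members over the 23 libraries were, with Spearman's rho as a description, Lrg1 (0.913), Slpi (0.873), Hp (0.807), Anxa1 (0.799), Cxcr2 (0.793), Cyp4f18 (0.78), S100a11 (0.772), Wfdc21 (0.767), H2-Q10 (0.757) and Il1f9 (0.744). S100a8 held 98285 of the 223230 counts of the members, and its own closest genes were Lrg1 (0.895), Slpi (0.883), Cxcr2 (0.819), Hp (0.798) and Cyp4f18 (0.774). The genes closest to Lcn2 were Ackr1 (0.845), S100a11 (0.799), Slc28a2 (0.789), Emb (0.776) and Lrg1 (0.773). Ackr1, the Duffy chemokine receptor of venules and red cells, was highest in Maintenance 6 (36.5 CPM), where Lcn2 also had its highest Maintenance value. Camp ranked with Gm32694 (0.823), Gm30554 (0.808), Gm36490 (0.771), 4930526I15Rik (0.771) and Stap1 (0.753). Camp was at 0 in 6 Abstinence and 6 Maintenance libraries, so its ranks hold many ties and mostly set Saline libraries apart from the others. All these genes were read from the same libraries and share their depth.

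Markers of other blood and brain cells are set beside these values. Monocyte markers summed to 820 to 1170 CPM in Abstinence, 953 to 1150 in Maintenance and 757 to 1210 in Saline libraries, with 0 of 13 passing in any comparison and none at 0 in any group. Most of this sum was 1 gene, Nr4a1, at 919 ± 111, 856 ± 122 and 826 ± 133 CPM in the same order, so the sum says little of the others. Against Saline the median log2 fold change of the 13 was -0.61 in Abstinence (11 negative) and -0.78 in Maintenance (8 negative). Over all genes the median was 0.01 in both. The monocyte receptor gene Ccr2 was highest in Saline 6 (69.0 CPM, against a Saline median of 16.3). Lymphocyte markers summed to 50.9 to 65.5 CPM, 32.5 to 70.6 and 49.6 to 76.9 in the same order, with 0 of 7 passing and Cd3e at 0 in all groups. Oligodendrocyte markers summed to 1830 to 4740 CPM in Abstinence, 1310 to 5330 in Maintenance and 648 to 5410 in Saline libraries, with 0 of 10 passing. Erythroid markers summed to 273 to 967, 238 to 801 and 245 to 868 CPM in the same order, with 0 of 9 passing, Car1 at 0 in Abstinence and Maintenance, and Slc4a1 and Epb42 also at 0 in Maintenance. The most abundant of them in Maintenance was Car2, a carbonic anhydrase that oligodendrocytes also express, at 167 ± 51.8 CPM in Abstinence, 227 ± 168 in Maintenance and 75.1 ± 57.5 in Saline. The hemoglobin genes had lower means in Maintenance, where Hbb-bs averaged 178 ± 105 CPM in Abstinence, 74 ± 66.7 in Maintenance and 191 ± 98 in Saline. Against Saline the log2 fold changes in Maintenance were -1.37 ± 0.51 for Hbb-bs, -1.28 ± 0.47 for Hba-a1 and -1.09 ± 0.47 for Hba-a2 (adjusted p of 0.243, 0.242 and 0.342), and -0.10 ± 0.52, -0.12 ± 0.48 and 0.11 ± 0.47 in Abstinence (adjusted p = 0.999 each). Of the myeloid progenitor markers other than the granule genes, only Cd34 was abundant. It was at 274 ± 22.9 CPM in Abstinence, 251 ± 74.8 in Maintenance and 266 ± 31.7 in Saline. Top2a averaged 6.90, 6.46 and 4.91 CPM in the same order, Mki67 0.575, 1.74 and 0.488, and Flt3 1.77, 0.584 and 0.543. The cells that held Cd34 were not tested. Markers of B-cell precursors, which share the marrow, were near 0 apart from Ebf1, with Igll1, Rag1, Dntt and Pax5 at 0 in Abstinence and in Saline. Choroid plexus and ependymal markers had a median sum of 253 CPM in Abstinence, 237 in Maintenance and 78.8 in Saline. Most of this was 1 gene, Enpp2, with medians of 251, 233 and 71.8 CPM in the same order. These sums thus say little of the other markers. Of 7 tested, Sostdc1 and Enpp2 rose in Maintenance against Saline (adjusted p = 0.0473 and 0.048), with 910 and 31100 CPM in Maintenance 8 against group medians of 0.324 and 233 CPM, and 0 passed in the other comparisons. Platelet markers (Gp9 the most abundant), endothelial markers (Itm2a), border macrophage markers (F13a1) and partners of Lcn2 in stressed glia (Nfkbiz) had 0 of 7, 9, 10 and 12 tested genes passing in any comparison. The part of any of these markers in the members' values was not tested.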

How the data were processed

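RNA from 23 microglial isolates was analysed from counts per gene. The submitters' processing notes list STAR 2.7.10a, DESeq2 1.38.3, StringTie 2.1.5, cutadapt 1.18 and Trim Galore 0.6.7, in no stated role, and the build mm10 (GRCm38). The counting step and read strand are not given in the sources used here. The deposited values are whole-number counts, unnormalized, and a second table held the same counts for 17 libraries (0 of 611592 values differed).

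The 10 members and all gene lists were chosen with earlier results of these data known. All members were named, and for other lists genes among the first 4 (those that passed, then the most abundant); genes named as at 0, the genes ranked most like the members, and the early granule genes are further names, the last chosen after their values were seen. Genes were kept with filterByExpr (minimum count 10, minimum total 15), and CPM were scaled with TMM factors. One edgeR 4.0.16 quasi-likelihood fit with group as factor covered 16121 genes, with Benjamini-Hochberg adjustment and a threshold of 0.05. The SE is the log2 fold change divided by the square root of F. Of the members, 8 passed the filter (Mpo, Camp and Ngp only with their Saline libraries), and Elane and Ltf did not. This test was first tested on simulated counts. Positions and promoter sequences came from RefSeq (GRCm38.p6), in which 10 of 10 members matched, and exon lengths from GENCODE M21. Limits from a count of 0 use 3 counts, cover counting error only and assume that the values are read counts and not estimates from coverage, which the sources used here do not settle. Alternatives covered normalization, filters, DESeq2 1.42.0, limma 3.58.1 voom, a replicate block and sets of libraries.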

Additional observations from a re-analysis of the deposited data

Results flagged for a closer look

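Within each group, a library was looked at again when its gap to the nearest other library took up an unusually large part of the group's range. This was so in 11 of the 25 combinations of member and group that held any counts. Chance flags about 1 in 20 where values are normally distributed. These CPM were skewed and held many zeros, so that rate does not apply and the number of flags measures no excess. The combinations are not independent, because the same libraries recur. Saline 6 stood apart for S100a8 (416 CPM, next 87.5), S100a9 (175 CPM, next 37.9), Retnlg (162 CPM, next 23.6) and Mmp8 (94.2 CPM, next 13.9). Saline 5 stood apart for Mpo (139 CPM, next 24.5) and Elane (54.5 CPM, next 9.06). Abstinence 7 stood apart for Mmp8 (12.9 CPM, next 2.31), and Maintenance 6 for Lcn2 (5.32 CPM, next 2.47). In 3 further combinations the library was the only one of its group with counts, and so was flagged whatever its level. These were Maintenance 8 for Ltf (1.14 CPM), Abstinence 3 for Camp (0.111 CPM) and Abstinence 1 for Ngp (0.892 CPM).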

How the results depend on the processing

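With all libraries, 0 members passed in any comparison. In Maintenance against Saline 1 member, Mpo, passed with robust = FALSE (adjusted p = 0.0368) and with a replicate block (1 member; 69 genes in place of 114). In Abstinence against Saline 2 passed by DESeq2 and 1 with the replicate block. Same-numbered libraries did not deviate together (correlations -0.116 to 0.092; best with its own number in 5 of 44 choices). Leaving out 1 library left 0 members passing in every comparison, with Mpo too low to be tested in 7 of the 23 fits. All genes that passed then ranged from 42 (without Saline 3) to 197 (without Saline 8) in Maintenance against Saline, 1 to 15 (without Saline 8) in Abstinence against Saline and 89 (without Abstinence 3) to 265 (without Maintenance 8) in Abstinence against Maintenance. For these 3 comparisons in that order, the counts of genes were 349, 36 and 452 by DESeq2, 413, 208 and 340 by limma voom, 57, 5 and 64 with the compared groups alone, and 176, 56 and 238 in the 17 libraries of the second table, against 114, 3 and 153. A filter of 1 CPM gave 6 genes in Abstinence against Saline and 242 in Abstinence against Maintenance, leaving out Maintenance 6, 7 and 8 gave 15 in Abstinence against Saline, and leaving out Saline 5 and 6, chosen after the data were seen, gave 58 in Maintenance and 0 in Abstinence against Saline. Signs turned for some members. The 17 libraries of the second table leave out Saline 5, 6 and 8 and Maintenance 6, 7 and 8. They thus lack the Saline libraries that led for the members, and are no separate check beside the fit without Saline 5 and 6. In Maintenance against Saline the log2 fold changes became 0.03 for S100a8, 0.282 for Lcn2 and 0.505 for Mmp8 in the 17 libraries, and 0.048 for S100a8, 0.33 for Lcn2, 0.234 for Retnlg and 0.522 for Mmp8 without Saline 5 and 6. In Abstinence against Saline, Lcn2 became 0.339 in the 17 libraries and 0.161 without Saline 5 and 6. In Abstinence against Maintenance, Ngp became 6.253 and Lcn2 0.057 in the 17 libraries, and 6.22 and 0.065 without Maintenance 6, 7 and 8. In both settings only Maintenance 1 to 5 were left, which had 0 Ngp counts. The Ngp values thus rest on the 65 counts of Abstinence 1 against a group at 0, and their size has no meaning. In the same comparison limma voom gave 0.596 for S100a9 and 1.487 for Retnlg. Without 1 library, Retnlg ranged from -1.37 to 0.075 and Mmp8 from -1.526 to 0.192 in Maintenance against Saline (both highest without Saline 6), and S100a9 from -0.504 to 0.285 and Lcn2 from -0.912 to 0.295 in Abstinence against Maintenance. The cause of the other turns of sign was not tested. A count of 0 in single libraries allows up to 0.0551 CPM.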
